A study of Mus musculus with 18 samples.

Results

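The results describe 34 genes that mark the vascular lining and the vitamin A-storing cells of the liver, 21 of them endothelial and 13 stellate, chosen by gene name from the 16873 genes of the deposited table. All 34 names were found. The table holds RNA from cells labelled as hepatocytes of age-matched mice without tumors, in 6 groups of 3 libraries that the labels call biological replicates. The groups are Mtdh KO and Mtdh WT cells treated with medium conditioned by Kupffer cells that had been given Py8119-EVPs (CM), Mtdh KO and Mtdh WT cells treated with TNFa, and Mtdh KO and Mtdh WT cells treated with TGFb. There was no untreated group, so each treatment could only be set against another, and the KO cells differed from the WT cells within each treatment. The sources used here do not give dose, duration, the sex of the mice, the tissue in which Mtdh was removed or how the hepatocytes were purified, and p-values measure the spread between libraries, which may be technical.

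Liver sinusoidal endothelial cells line the capillaries of the liver with a perforated wall that lacks an organized basement membrane, and they clear waste molecules from the blood through scavenger receptors such as the stabilins and an Fc receptor. They also send signals to hepatocytes: BMP2 from these cells drives hepatocytes to make hepcidin, the hormone that limits iron uptake. Stellate cells lie between the endothelium and the hepatocytes, store retinyl esters, carry receptors for PDGF, and on injury can turn into collagen-making myofibroblasts, a change in which TGF-beta is a main signal. Both cell types sit close to hepatocytes, so their transcripts are also a check on what a hepatocyte preparation holds.

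All libraries were rich in hepatocyte transcripts, and Mtdh followed the labels. The 20 hepatocyte markers were all above 0 in all 18 libraries, with a summed normalized value between 1915147 and 3952989.9 per library, against 4081 to 8111 for the 21 endothelial genes and 2358 to 4571 for the 13 stellate genes. Mtdh had normalized values of 581 to 973 in KO libraries and 10063 to 13725 in WT libraries. Estimated depth was between 19400000 and 35600000 reads on the genes of the table, 1 read was worth 0.688 to 1.25 normalized units, and the level that 3 reads would give was 2.06 to 3.74 units. Correlations of log2 values between replicates were 0.951 to 0.966. Of the 34 members, 31 reached a normalized value of at least 10 in 3 libraries and were tested, 21 endothelial and 10 stellate.

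Per kilobase of exon, the endothelial genes spanned a wide range, and genes known from the sinusoidal type lay in all parts of it. Over all 18 libraries the mean normalized value per kilobase was 455 for Cdh5, which encodes the adhesion molecule VE-cadherin, 106 for Stab1, which encodes the scavenger receptor stabilin-1, and 92.0 for Pecam1, which encodes the junction protein CD31. It was 63.4 for Gata4, 62.9 for Lyve1, 43.4 for Maf, 36.7 for Eng, 29.8 for Fcgr2b and 20.8 for Stab2. It was 12.7 for Plvap, which encodes the diaphragm protein of endothelial pores, 10.1 for Gpr182, an endothelial chemokine-binding receptor gene, 7.16 for Clec4g, a lectin gene of the liver sinusoid, and 4.86 for Kdr, which encodes VEGF receptor 2. Clec4g and Kdr were each listed at 0 in 1 library. Of the summed normalized value of the endothelial genes, Cdh5 made up 32.5%, Stab1 18.6% and Pecam1 9.73%. Some of these genes are known in other cells too, for example Stab1, Fcgr2b, Lyve1 and Maf in macrophages, and Maf in hepatocytes. The list of examples is not complete, so the other genes are not taken as restricted to endothelium.

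Most of the summed level of the stellate genes came from 4 members that encode secreted proteins, and other members ranged down to near 0. Per kilobase of exon the mean normalized value was 181 for Cxcl12, which encodes a chemokine for CXCR4, 151 for Ecm1, a secreted matrix glycoprotein that is also made by hepatocytes, 52.7 for Dcn, which encodes the collagen-binding proteoglycan decorin, and 36.3 for Reln, which encodes the secreted glycoprotein reelin. Of the summed normalized value of the list, Cxcl12 made up 45.5%, Reln 26.4%, Ecm1 11.6% and Dcn 9.45%. Rgs5 stood at 16.8 per kilobase, Hgf at 7.16 and Pdgfra at 3.56. Rgs5 and Hgf had a value of at least 10 in all 18 libraries, and Pdgfra in 16. Lrat, which encodes the enzyme that makes retinyl esters, stood at 2.89 per kilobase, Pdgfrb, the PDGF receptor gene of pericytes, at 2.77, and Col3a1, a fibrillar collagen gene, at 2.31. Des, the muscle-type filament gene used to stain stellate cells, was listed at 0 in 9 of 18 libraries, Lum, which encodes the proteoglycan lumican, in 10, and Colec11, which encodes a collectin, in 8. These 3 genes did not reach a normalized value of 10 in 3 libraries and were not tested. Of other stellate markers, Gfap was at 0 in 17 libraries, Hand2 in 15, Cygb in 14 and Acta2, the myofibroblast actin gene, in 13. The members thus differed widely in level, and whether they stand for stellate cells was not tested. They are called the stellate genes below only as the list that they form.

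**Figure D1:**
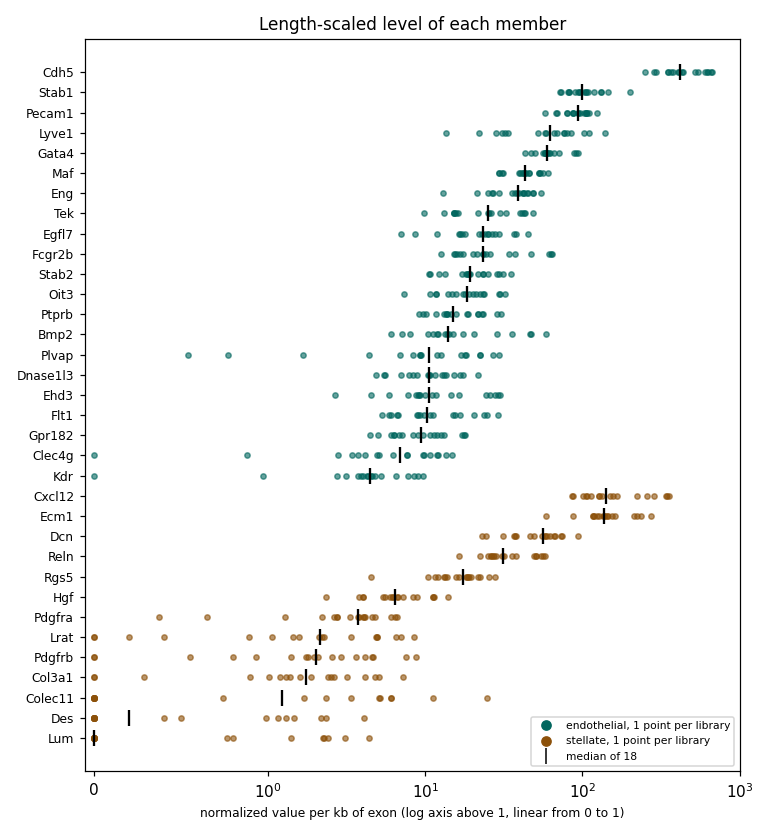
Length-scaled level of each of the 34 genes, as the normalized value per kilobase of merged exons in each of the 18 libraries (1 point per library, black tick at the median; the axis is logarithmic above 1 and linear from 0 to 1). Cdh5 lies above all other endothelial genes (mean 455 per kilobase), and Lrat, Pdgfrb, Col3a1, Colec11, Des and Lum lie at the low end of the stellate genes.

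The promoters of 5 members are shown, picked from those with a RefSeq window. The pentamer GGAAG, the core bound by ETS factors that are active in endothelium, is in capitals on either strand (CTTCC on the strand shown). Each run gives the 250 bases before the RefSeq start site of the GRCm38.p6 build, 5′ to 3′ on the gene's strand. The windows are chr1:170976072-170976321 (minus strand) for Fcgr2b, chr2:32646345-32646594 (plus strand) for Eng, chr5:147726012-147726261 (minus strand) for Flt1, chr5:22344706-22344955 (minus strand) for Reln and chr6:117168285-117168534 (plus strand) for Cxcl12.
Fcgr2b: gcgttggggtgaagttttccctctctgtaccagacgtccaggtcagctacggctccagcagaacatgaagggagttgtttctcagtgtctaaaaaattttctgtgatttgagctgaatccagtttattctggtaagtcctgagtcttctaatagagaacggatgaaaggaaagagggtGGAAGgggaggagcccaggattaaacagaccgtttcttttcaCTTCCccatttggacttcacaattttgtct
Eng: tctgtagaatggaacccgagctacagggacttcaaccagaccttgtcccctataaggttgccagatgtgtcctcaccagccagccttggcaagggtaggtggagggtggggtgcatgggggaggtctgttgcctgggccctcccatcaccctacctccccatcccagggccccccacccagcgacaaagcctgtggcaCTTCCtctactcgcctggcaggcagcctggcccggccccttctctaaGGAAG
Flt1: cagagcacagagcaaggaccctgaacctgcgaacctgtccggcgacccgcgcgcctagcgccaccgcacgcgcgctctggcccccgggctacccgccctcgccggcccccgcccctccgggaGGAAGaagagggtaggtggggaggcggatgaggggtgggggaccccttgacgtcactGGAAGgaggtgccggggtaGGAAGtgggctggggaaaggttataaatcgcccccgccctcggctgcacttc
Reln: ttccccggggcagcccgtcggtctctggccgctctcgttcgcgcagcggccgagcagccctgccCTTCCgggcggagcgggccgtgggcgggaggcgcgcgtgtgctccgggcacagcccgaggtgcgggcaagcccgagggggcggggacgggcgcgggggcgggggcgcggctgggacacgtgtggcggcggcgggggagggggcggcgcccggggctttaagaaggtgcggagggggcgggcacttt
Cxcl12: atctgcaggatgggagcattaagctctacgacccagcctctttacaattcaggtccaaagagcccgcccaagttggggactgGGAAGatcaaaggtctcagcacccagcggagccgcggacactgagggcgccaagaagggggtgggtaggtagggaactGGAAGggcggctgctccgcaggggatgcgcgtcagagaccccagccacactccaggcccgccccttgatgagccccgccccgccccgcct

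The pentamer occurred 2 times in the Fcgr2b run, 2 times in Eng, 3 times in Flt1, 1 time in Reln and 2 times in Cxcl12. RefSeq windows of 300 bases, which add the 50 bases from the start site on, were matched by symbol for 20 of the 34 members. GGAAG was in 9 of 10 endothelial and 6 of 10 stellate windows, and in 71.1% of 27025 windows of that length. The longer ETS form CCGGAA, which can overlap GGAAG, was in Kdr and Reln and in 15.2% of all windows. The GATA motif AGATAA was in Tek, Rgs5 and Colec11, against 11.4% of all windows. SMAD's CAGAC was in 5 endothelial and 7 stellate windows, against 49.7% of all. The E-box CANNTG was in 7 and 9, against 72.1%. AP-1's TGANTCA was in Ecm1 (7.93% of all), the TATA motif TATAAA in Clec4g, Flt1, Ecm1 and Col3a1 (14.2%) and the SOX motif ACAATG in Clec4g (12.8%). Both strands were searched, and a match describes letters only. The members without a window were Pecam1, Cdh5, Lyve1, Oit3, Gpr182, Ptprb, Plvap, Bmp2, Gata4, Maf, Dnase1l3, Dcn, Pdgfrb and Lum.

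In KO against WT cells, averaged over the treatments, 8 endothelial genes rose and none fell, while 2 stellate genes rose and 1 fell. The endothelial genes that rose were Cdh5, Pecam1, Stab1, Fcgr2b, Tek, Eng, Ehd3 and Ptprb, and the stellate genes were Dcn and Cxcl12, with Ecm1 lower. A gene is said to rise or fall where its Benjamini-Hochberg adjusted p in a limma model over 14455 genes was below 0.05, and differences are on the log2(value + 1) scale with their standard error. Of all genes tested, 20.7% were called in this comparison, 11.2% higher and 9.53% lower in KO cells, and their median difference was 0.0. The endothelial genes had a median difference of 0.58, with 13 of 21 not called, and the stellate genes 0.09, with 7 of 10 not called. With libraries rescaled to equal totals, 40.5% of all called genes were higher, against 54.0% as deposited, and the calls of the members were the same 11.

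**Figure D2:**
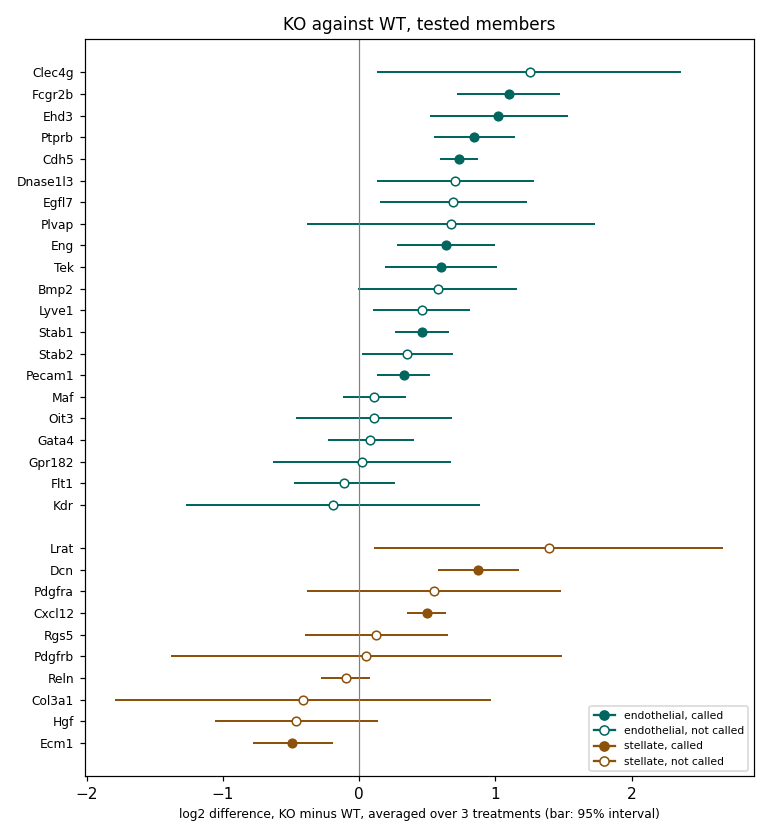
KO minus WT difference, averaged over the 3 treatments, for the 31 members tested (log2 scale, point with 95% interval, filled where called). The 8 filled endothelial points lie between 0.33 and 1.10, and the filled stellate points are Dcn, Cxcl12 and, below 0, Ecm1.

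Other cell markers moved between KO and WT libraries as well, in an average in which 11.2% of all genes rose and 9.53% fell. Of 20 Kupffer cell and macrophage markers 18 rose and none fell in the average, with a median difference of 1.49. Their summed normalized value was 8108 to 8465 in CM KO libraries, against 4519 to 5169.6 in CM WT libraries. It was 11071 to 11806 in TNFa KO libraries and 5364 to 6537 in TNFa WT libraries, and 6852 to 7861 in TGFb KO libraries and 4005 to 4691 in TGFb WT libraries. The groups did not overlap in any treatment, with ratios of KO to WT means of 1.69, 1.9 and 1.77 for CM, TNFa and TGFb. Among these markers Timd4 was at 0 in 4 libraries, Cd163 in 2 and Tyrobp in 1. Of 20 hepatocyte markers 12 rose and 2 fell, of 10 bile duct markers none rose and 4 fell, and of 5 lymphocyte and neutrophil and 3 mesothelial and fibroblast markers tested none was called by limma or reached an unadjusted p below 0.05. The part of other cells in the endothelial differences was not tested, and in these bulk libraries fewer cells of a type and less RNA per cell cannot be told apart.

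The summed level of the endothelial genes was higher in KO libraries in each treatment. It was 6012 to 6179 in CM KO libraries, against 4081 to 4992 in CM WT libraries. With TNFa it was 7431 to 8111 in KO libraries and 4368 to 5027 in WT libraries, and with TGFb 6247 to 7602 in KO libraries and 4954 to 5243 in WT libraries. KO and WT libraries did not overlap within a treatment, and the ratios of means were 1.32 with CM, 1.65 with TNFa and 1.36 with TGFb. The mean log2 level of the endothelial genes was 7.06 ± 0.23 in CM KO and 6.62 ± 0.14 in CM WT libraries, 7.44 ± 0.07 in TNFa KO and 6.70 ± 0.07 in TNFa WT libraries, and 7.06 ± 0.13 in TGFb KO and 6.74 ± 0.06 in TGFb WT libraries (SD, n = 3 each). For the stellate genes the summed level was 2358 to 2897 in CM KO and 2402 to 2673 in CM WT libraries, which overlapped. It was 3087 to 3714 in TNFa KO and 2649 to 2893 in TNFa WT libraries, and 4153 to 4571 in TGFb KO and 3467 to 3870.1 in TGFb WT libraries. The ratios of means were 1.08, 1.24 and 1.2 in the same order of treatments. For the other endothelial genes counted below the ratios were 1.06, 1.2 and 1.11, and KO and WT libraries overlapped with CM and TGFb. For the other stellate genes they were 1.44, 1.95 and 1.52, without overlap. The 20 hepatocyte markers had 1.29, 0.972 and 1.35, with overlap with TNFa alone, and the 10 bile duct markers 0.801, 0.707 and 0.853. These sums follow the genes with the largest values and are given without a test.

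**Figure D3:**
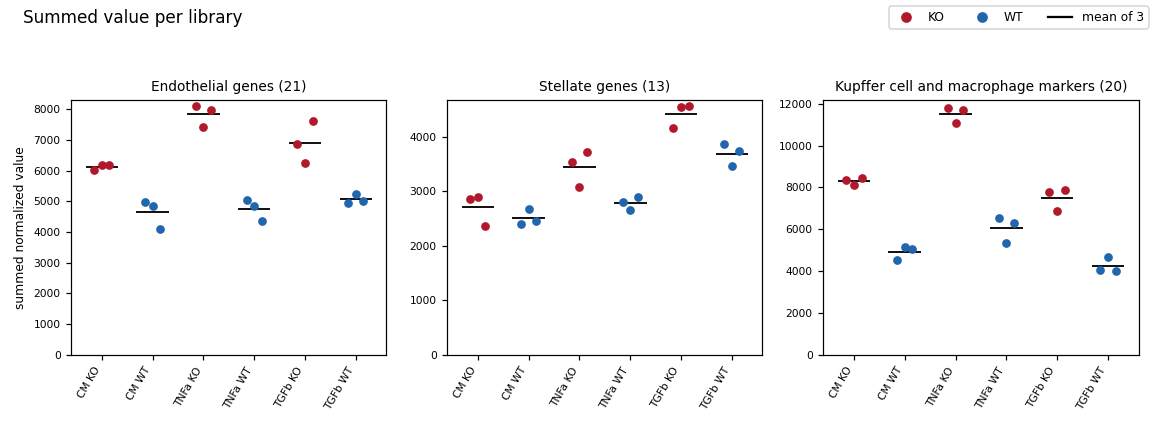
Summed normalized value per library for the 21 endothelial genes, the 13 stellate genes and 20 Kupffer cell and macrophage markers (1 point per library, bar at the mean of 3, KO left of WT in each treatment). KO and WT points do not overlap for the endothelial genes or the Kupffer cell markers in any treatment, and the stellate sums overlap with CM.

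Cdh5 (chromosome 8, 104828257 to 104871143 on mm39) was the endothelial gene that rose in KO cells in all 3 treatments. With CM, Cdh5 had normalized values of 1846, 1808 and 2186 in KO libraries, against 1572, 1235 and 1057 in WT libraries. With TNFa, Cdh5 had 2616, 2794 and 2759 in KO libraries, against 1464, 1461 and 1199.7 in WT libraries. With TGFb, Cdh5 had 2660.4, 2286 and 2512 in KO libraries, against 1527, 1723 and 1696 in WT libraries. Every KO library was above every WT library, also across treatments. The difference was 0.61 ± 0.12 with CM, 0.99 ± 0.12 with TNFa and 0.59 ± 0.12 with TGFb (limma adjusted p = 0.0009, 1e-06 and 0.0008), and 0.73 ± 0.07 averaged (adjusted p = 2e-09, a ratio of 1.66). Among the endothelial genes tested only Cdh5 kept all 9 KO libraries apart from all 9 WT libraries.

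Fcgr2b and Ptprb rose in KO cells in the average, Fcgr2b also with TNFa and Ptprb also with TNFa and with TGFb. Fcgr2b (chromosome 1, 170786186 to 170804116), the inhibitory Fc gamma receptor gene that sinusoidal cells use to clear immune complexes, had 134, 273 and 198 in CM KO libraries, against 124, 87.9 and 100.4 in CM WT libraries. With TNFa, Fcgr2b had 371, 353 and 363 in KO libraries, against 96.1, 88.8 and 91.8 in WT libraries. With TGFb, Fcgr2b had 116, 217 and 141 in KO libraries, against 72.9, 134 and 149.7 in WT libraries. The TNFa groups were tight and far apart, the CM groups were apart with a wide KO spread, and the TGFb groups overlapped. The difference was 1.96 ± 0.32 with TNFa (limma adjusted p = 0.0001, a ratio of 3.9), 0.90 ± 0.32 with CM (0.076) and 0.42 ± 0.32 with TGFb (0.47), and 1.10 ± 0.18 averaged (4e-05). Whether the KO difference of Fcgr2b varied with treatment did not pass the limma F-test (adjusted p = 0.13, unadjusted p = 0.0062).

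Ptprb (chromosome 10, 116111428 to 116225440) encodes the phosphatase VE-PTP, which acts on VE-cadherin and on the receptor TIE2. With CM, Ptprb had 193, 244 and 289 in KO libraries, against 209, 184 and 134 in WT libraries. With TNFa, Ptprb had 383, 310.2 and 407 in KO libraries, against 180, 176 and 122 in WT libraries. With TGFb, Ptprb had 249.8, 288 and 305 in KO libraries, against 155, 128 and 184 in WT libraries. The groups overlapped with CM and not with TNFa or TGFb. The difference was 0.46 ± 0.25 with CM, 1.21 ± 0.25 with TNFa and 0.86 ± 0.25 with TGFb (limma adjusted p = 0.31, 0.0018 and 0.021), and 0.84 ± 0.14 averaged (5e-05). The TGFb call was lost without TGFb KO library 2 or 3 or TGFb WT library 1 or 2 (adjusted p = 0.054, 0.08, 0.054 and 0.11). It was also lost in a fit of only the groups compared (limma adjusted p = 0.05).

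**Figure D4:**
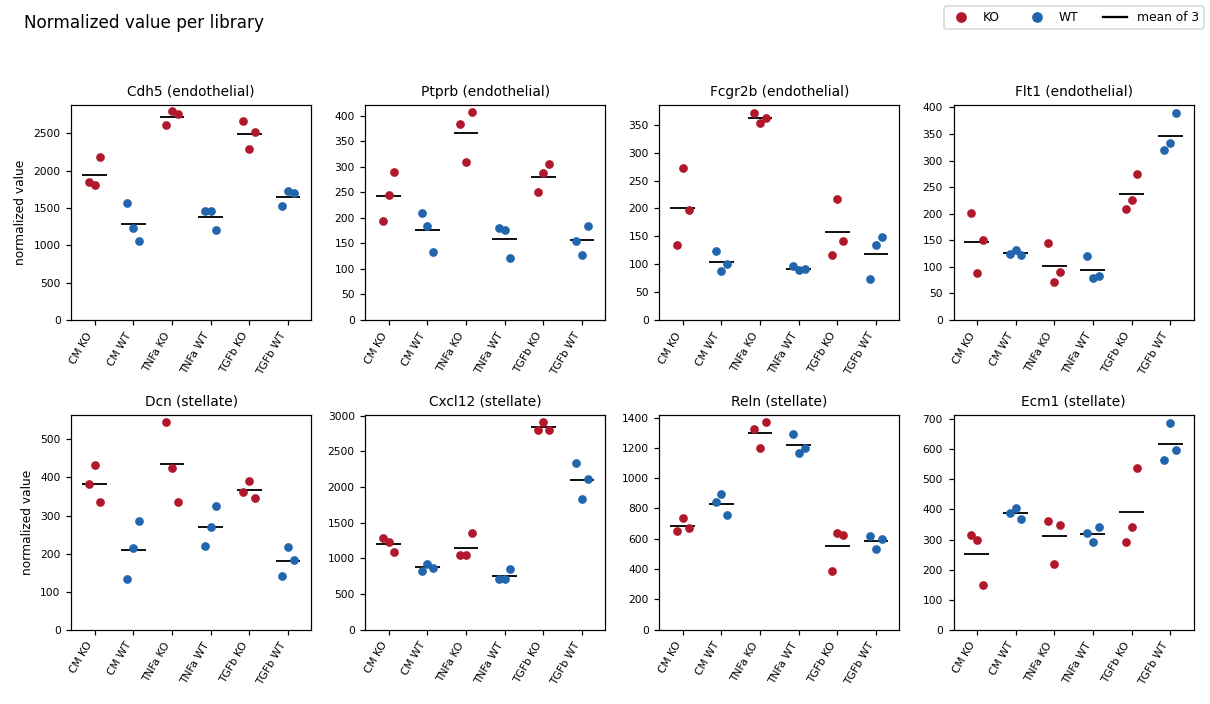
Normalized value per library of 4 endothelial genes (top) and 4 stellate genes (bottom), by treatment with KO left of WT (1 point per library, bar at the mean of 3). Cdh5 and Dcn are higher in KO libraries in each treatment, Flt1, Cxcl12 and Ecm1 reach their highest group mean with TGFb, and Reln with TNFa.

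Of the vascular signalling receptors, Tek and Eng rose in KO cells with TNFa and in the average. Tek encodes TIE2, the angiopoietin receptor. With TNFa, Tek had 141, 153 and 195 in KO libraries, against 119.5, 46.3 and 72.1 in WT libraries. The WT libraries were spread, with library 1 close to the lowest KO library. The Tek difference was 1.12 ± 0.35 with TNFa (limma adjusted p = 0.042) and 0.60 ± 0.20 averaged (0.032), with 0.09 ± 0.35 for CM and 0.58 ± 0.35 for TGFb not called. Without TNFa KO library 1, 2 or 3 or TNFa WT library 2 or 3 the TNFa adjusted p for Tek was 0.068, 0.09, 0.15, 0.22 and 0.11 in turn. The averaged call was lost without CM KO library 2, TNFa KO library 3, TNFa WT library 2, TGFb KO library 1 or TGFb WT library 2 or 3 (adjusted p = 0.074, 0.067, 0.078, 0.057, 0.061 and 0.062). Quantile normalization and library weights also ended the averaged call of Tek (limma adjusted p = 0.084 and 0.052). Its TNFa call was lost with no filter, quantile normalization, library weights and a fit of only the groups compared (0.058, 0.089, 0.075 and 0.14).

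Eng encodes endoglin, a coreceptor for BMP9 and TGF-beta ligands. With TNFa, Eng had 197, 150.2 and 183 in KO libraries, against 101, 52.4 and 86.6 in WT libraries. With CM, Eng had 173, 170.5 and 155 in KO libraries, against 119, 145 and 107 in WT libraries. With TGFb, Eng had 219, 179 and 169.9 in KO libraries, against 159, 109.7 and 197 in WT libraries. KO and WT libraries were apart with TNFa and CM and overlapped with TGFb. The difference was 1.17 ± 0.30 with TNFa (limma adjusted p = 0.013), 0.43 ± 0.30 with CM (0.45), 0.32 ± 0.30 with TGFb (0.60) and 0.64 ± 0.18 averaged (0.008). The TNFa call was lost without TNFa KO library 1 or TNFa WT library 2 (adjusted p = 0.062 and 0.093), and in a fit of only the groups compared (0.084).

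The VEGF receptors did not pass the test between KO and WT cells. Flt1, the VEGF receptor 1 gene, differed by -0.11 ± 0.18 averaged (95% interval -0.48 to 0.26), and Kdr by -0.19 ± 0.53 (-1.27 to 0.89). With TGFb, Flt1 had 209, 226 and 274 in KO libraries, against 319, 333 and 389 in WT libraries. These groups did not overlap, and the difference of -0.56 ± 0.31 was not called (limma adjusted p = 0.30).

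Among junction, scavenger and trafficking genes, Pecam1, Stab1 and Ehd3 rose in the average. Pecam1 had 767, 636 and 658 in CM KO libraries, against 431, 540.2 and 493 in CM WT libraries. With TNFa, Pecam1 had 688, 599 and 584 in KO libraries, against 420.4, 541 and 359.9 in WT libraries. With TGFb, Pecam1 had 581, 539 and 653 in KO libraries, against 660.2, 661 and 499 in WT libraries. The groups were apart with CM and TNFa and mixed with TGFb. The Pecam1 difference was 0.49 ± 0.16 with CM (limma adjusted p = 0.057), 0.52 ± 0.16 with TNFa (0.049), -0.03 ± 0.16 with TGFb (0.94) and 0.33 ± 0.10 averaged (0.013). The TNFa call was lost without TNFa KO library 1, 2 or 3 or TNFa WT library 1 or 3 (adjusted p = 0.18, 0.09, 0.07, 0.13 and 0.26). It was also lost with no filter, quantile normalization, a replicate block and a fit of only the groups compared (limma adjusted p = 0.056, 0.06, 0.057 and 0.13).

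Stab1 had 1352, 1215 and 2065 in TGFb KO libraries, against 832, 1082 and 746 in TGFb WT libraries. With TNFa, Stab1 had 1491, 1089.5 and 1354 in KO libraries, against 971, 992 and 925 in WT libraries. KO was above WT in both treatments, with 1 high KO library under TGFb. With CM, Stab1 had 845, 1121 and 957 in KO libraries, against 847, 1048 and 738 in WT libraries, which overlapped. The difference was 0.78 ± 0.17 with TGFb (limma adjusted p = 0.0016), 0.43 ± 0.17 with TNFa (0.12), 0.16 ± 0.17 with CM (0.67) and 0.46 ± 0.10 averaged (0.0008). Stab2, the related hyaluronan receptor gene, differed by 0.35 ± 0.16 averaged and Lyve1, another hyaluronan receptor gene, by 0.46 ± 0.17, neither called (adjusted p = 0.13 and 0.063).

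Ehd3, an endocytic recycling gene used as a marker of sinusoidal endothelium, had 107, 159 and 169.9 in CM KO libraries, against 57.2, 59.5 and 95.4 in CM WT libraries. With TNFa, Ehd3 had 183, 190.5 and 196 in KO libraries, against 72.6, 58.5 and 76.7 in WT libraries. With TGFb, Ehd3 had 60.5, 51.2 and 38.3 in KO libraries, against 65.3, 29.8 and 17.4 in WT libraries. The groups were apart with CM and TNFa and overlapped at low values with TGFb. The difference was 1.04 ± 0.43 with CM (limma adjusted p = 0.14), 1.45 ± 0.43 with TNFa (0.031), 0.58 ± 0.43 with TGFb (0.46) and 1.02 ± 0.25 averaged (0.0025). Leaving out any 1 of the 6 TNFa libraries ended the TNFa call of Ehd3, with adjusted p between 0.063 and 0.099, as did quantile normalization (0.056).

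Egfl7, which encodes a secreted factor of endothelial cells, rose with TGFb alone among the single treatments, and the difference between treatments did not pass the test (limma adjusted p = 0.29). With TGFb, Egfl7 had 131, 99.7 and 160.4 in KO libraries, against 59.2, 31 and 42.4 in WT libraries. The groups were well apart. The difference was 1.56 ± 0.46 with TGFb (limma adjusted p = 0.021), 0.70 ± 0.46 with CM (0.41), -0.20 ± 0.46 with TNFa (0.87) and 0.69 ± 0.26 averaged (0.064). The TGFb call was lost without TGFb KO library 1 or 3 or TGFb WT library 2 or 3 (adjusted p = 0.065, 0.096, 0.1 and 0.056).

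The remaining endothelial genes were not called between KO and WT cells, averaged or within a treatment. Averaged differences were 1.25 ± 0.55 for Clec4g, 0.70 ± 0.28 for Dnase1l3, which encodes a secreted nuclease, 0.67 ± 0.52 for Plvap, 0.58 ± 0.29 for Bmp2 and 0.11 ± 0.28 for Oit3, a liver sinusoid marker gene. They were 0.11 ± 0.11 for Maf and 0.08 ± 0.15 for Gata4, 2 transcription factor genes of sinusoidal identity, and 0.02 ± 0.32 for Gpr182. The 95% interval of Clec4g, 0.13 to 2.36, lay above 0, but its limma adjusted p of 0.11 did not pass the threshold. The interval of Plvap, -0.38 to 1.73, spanned 0, so a difference of its size could not be resolved at this level. Bmp2 had 165, 209 and 167 in TNFa KO libraries, against 72.6, 126 and 53.7 in TNFa WT libraries. These did not overlap, and the difference of 1.17 ± 0.49 was not called (limma adjusted p = 0.16).

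Counted within treatments, 1 endothelial gene rose in KO cells with CM, 7 with TNFa and 4 with TGFb, and none fell. Of all genes, 9.39% were called with CM (5.62% higher and 3.77% lower in KO cells), 7.89% with TNFa (4.19% and 3.7%) and 12.2% with TGFb (7.25% and 4.95%). The medians of the endothelial genes were 0.43 with CM, 0.64 with TNFa and 0.32 with TGFb, against medians of all genes of -0.01, 0.02 and -0.01. KO libraries were above WT libraries without overlap for 6 endothelial genes with CM, 12 with TNFa and 7 with TGFb, and below for 0, 0 and 1 (Flt1). The same held for 13.3% of all genes above and 12.4% below with CM, 13.3% and 11.5% with TNFa, and 13.9% and 12.8% with TGFb. Leaving out 1 library, the count over endothelial and stellate genes together ran from 4 to 6 with TNFa, against 8 with all libraries, the lowest without TNFa KO library 1, and was 5 without TNFa KO library 2 or 3 or TNFa WT library 2 or 3. With TGFb it ran from 3 to 5, against 6, the lowest without TGFb WT library 2. With libraries rescaled to equal totals, 41.8% of all called genes were higher with CM, against 59.9% as deposited, and 35.7% with TGFb, against 59.4%. Ecm1 and Hgf were then called lower in KO cells with CM, and Ecm1 with TGFb. Whether the KO difference depended on the treatment was called for none of the 31 members by the limma F-test, against 1.7% of all genes. An unadjusted p below 0.05 was reached by 6 of them, namely Fcgr2b, Hgf, Egfl7, Pecam1, Cdh5 and Stab1.

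The stellate genes were split between KO and WT cells. Dcn (chromosome 10, 97315471 to 97354005) had 382, 432 and 335 in CM KO libraries, against 133, 214 and 285 in CM WT libraries. With TNFa, Dcn had 545, 426 and 336 in KO libraries, against 219, 269 and 324 in WT libraries. With TGFb, Dcn had 362, 391 and 345 in KO libraries, against 142, 218 and 183 in WT libraries. The lowest KO library of all, at 335, was above the highest WT library, at 324. The difference was 0.92 ± 0.25 with CM, 0.67 ± 0.25 with TNFa and 1.03 ± 0.25 with TGFb (limma adjusted p = 0.015, 0.098 and 0.0046), and 0.87 ± 0.14 averaged (3e-05). The CM call of Dcn was lost without CM KO library 1 or 2 or CM WT library 1 (adjusted p = 0.05, 0.079 and 0.15). It was also lost in a fit of only the groups compared (limma adjusted p = 0.088).

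Cxcl12 (chromosome 6, 117145496 to 117158328) rose in KO cells in all 3 treatments. It had 1278, 1222 and 1093 in CM KO libraries, against 828, 926 and 869 in CM WT libraries. With TNFa, Cxcl12 had 1041, 1039 and 1349 in KO libraries, against 704, 712 and 856 in WT libraries. With TGFb, Cxcl12 had 2802, 2905 and 2794 in KO libraries, against 2329, 1825 and 2117 in WT libraries. KO and WT were apart in each treatment, and WT libraries with TGFb were above KO libraries with CM or TNFa. The difference was 0.45 ± 0.12 with CM, 0.59 ± 0.12 with TNFa and 0.45 ± 0.12 with TGFb (limma adjusted p = 0.014, 0.0016 and 0.012), and 0.50 ± 0.07 averaged (2e-06). The CM call was lost without CM KO library 1 or 2 or CM WT library 1 (adjusted p = 0.078, 0.053 and 0.059), so that 1 member was called with CM without CM KO library 2 or CM WT library 1. The TGFb call was lost without TGFb WT library 2 (0.1) and with libraries rescaled to equal totals (0.055).

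Ecm1 was lower in KO cells. With CM, Ecm1 had 314, 298 and 147 in KO libraries, against 388, 404 and 368 in WT libraries. With TGFb, Ecm1 had 292, 343 and 538 in KO libraries, against 564, 689 and 598 in WT libraries. With TNFa, Ecm1 had 363, 219 and 349.7 in KO libraries, against 322, 292 and 342 in WT libraries. KO lay below WT with CM and TGFb, with 1 low KO library under CM, and overlapped with TNFa. Averaged, Ecm1 fell by 0.49 ± 0.14 on the log2 scale (limma adjusted p = 0.014), with no treatment called by itself (adjusted p = 0.083 for CM, 0.92 for TNFa and 0.066 for TGFb). Hgf, which encodes the hepatocyte growth factor that stellate cells supply, had 51.6, 29 and 16.7 in CM KO libraries, against 100.4, 81.9 and 80.1 in CM WT libraries. The groups did not overlap, and the difference of -1.54 ± 0.51 missed the threshold (limma adjusted p = 0.054). It was called under a pseudocount of 5, a filter on a mean value of at least 50, quantile normalization and equal totals, and without CM KO library 1 (limma adjusted p = 0.032 to 0.044).

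The other stellate genes tested were not called between KO and WT cells. Lrat had 45.1, 26.1 and 34.8 in TNFa KO libraries, against 0, 8.35 and 7.67 in TNFa WT libraries. The groups did not overlap, and the difference was not called (3.04 ± 1.08, limma adjusted p = 0.085). Averaged differences were 1.39 ± 0.63 for Lrat, 0.55 ± 0.45 for Pdgfra, the other PDGF receptor gene, 0.12 ± 0.26 for Rgs5, a pericyte regulator of G protein signals, 0.05 ± 0.70 for Pdgfrb, -0.10 ± 0.09 for Reln and -0.41 ± 0.67 for Col3a1. Within treatments, 2 stellate genes rose with CM (Dcn and Cxcl12), 1 with TNFa (Cxcl12) and 2 with TGFb (Dcn and Cxcl12), and none fell. KO libraries were above WT libraries without overlap for 3 of the 10 stellate genes tested in each treatment, and below for 3 with CM, 0 with TNFa and 1 with TGFb. For all genes the shares above and below were 13.3% and 12.4% with CM, 13.3% and 11.5% with TNFa, and 13.9% and 12.8% with TGFb. Medians of the 10 stellate genes tested were -0.10 with CM, 0.10 with TNFa and 0.38 with TGFb.

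Between treatments, 10 of the 31 members tested were called in CM against TGFb (32.3%, against 19.3% of all genes). In TNFa against TGFb 10 were called (32.3%, against 26.9%), and in CM against TNFa 3 (9.68%, against 19.3%). The comparisons share libraries, so they are not independent of each other. CM against TGFb, 4 endothelial genes rose (Stab2, Lyve1, Ehd3 and Maf) and 3 fell (Cdh5, Flt1 and Tek), and 1 stellate gene rose (Reln) and 2 fell (Ecm1 and Cxcl12). Of all genes, 19.3% were called, 9.43% higher and 9.87% lower. TNFa against TGFb, 6 endothelial genes rose (Stab2, Lyve1, Oit3, Ehd3, Bmp2 and Maf) and 1 fell (Flt1), and 1 stellate gene rose (Reln) and 2 fell (Ecm1 and Cxcl12), where 26.9% of all genes were called, 12.4% higher and 14.5% lower. CM against TNFa, none rose, and Cdh5, Bmp2 and Reln fell, where 19.3% of all genes were called, 10.8% higher and 8.47% lower. Without overlap between the 6 libraries of each treatment, Lyve1 and Reln were higher and Flt1, Tek and Cxcl12 lower in CM than in TGFb, which held for 2.64% of all genes above and 3.47% below. Lyve1, Oit3, Bmp2, Maf and Reln were higher and Flt1 and Cxcl12 lower in TNFa than in TGFb without overlap (3.83% and 6.05% of all genes), and Reln was lower in CM than in TNFa (2.4% of all genes below and 3.63% above). These comparisons average KO and WT cells, with 6 libraries per treatment. The endothelial medians were -0.03, 0.14 and -0.23 in the order given, and the stellate medians -0.62, -0.22 and 0.01, against 0.02, 0.02 and 0.01 for all genes. Scaled to equal totals, 69.1%, 74.7% and 33.0% of all called genes were higher in the same order, against 48.9%, 46.1% and 56.1% as deposited, with an all-gene median of 0.1, 0.2 and -0.09. Fcgr2b, Gpr182 and Dcn were also called higher in TNFa than in TGFb under that scaling, and Stab1 and Rgs5 lower in CM than in TNFa.

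**Figure D5:**
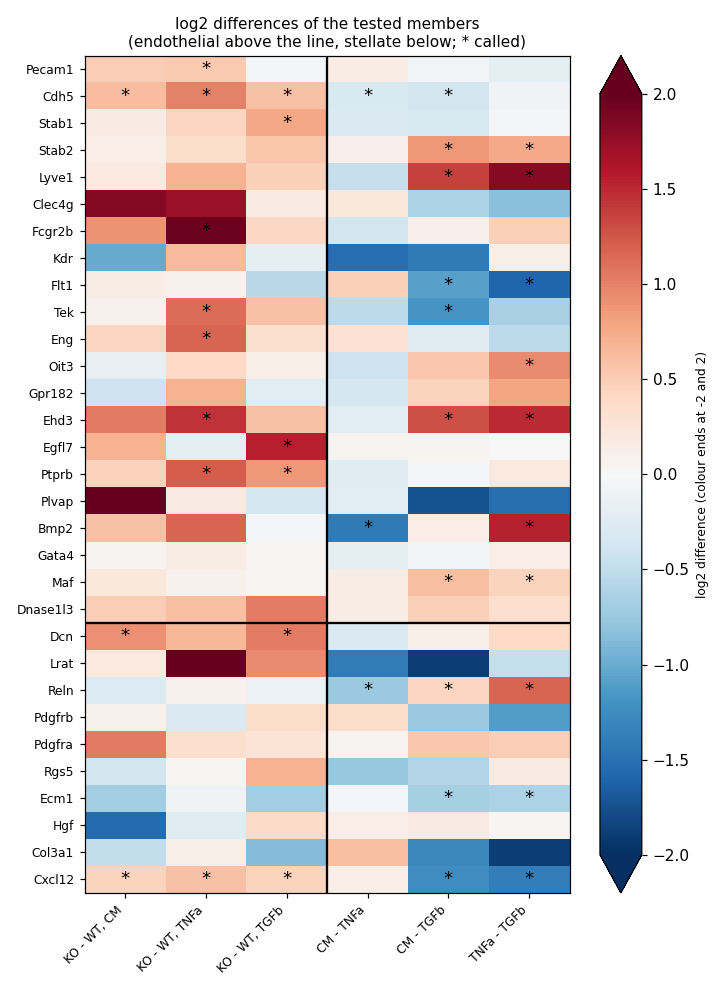
Log2 differences of the 31 members tested in the 6 pairwise comparisons (rows are genes, endothelial above the line; columns are KO minus WT within each treatment and then pairs of treatments averaged over genotypes; colours end at -2 and 2; a star marks a called difference). Cxcl12 and Flt1 are blue and Lyve1, Ehd3 and Reln red in both columns that are set against TGFb, and Cdh5 and Cxcl12 carry stars in all 3 KO columns.

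Lyve1 (chromosome 7, 110449814 to 110462446), the hyaluronan receptor gene shared by lymphatic and sinusoidal endothelium, was lowest with TGFb. It had 232, 224 and 171 in CM KO and 152, 191 and 202 in CM WT libraries. With TNFa it had 299, 405 and 321 in KO and 222, 169 and 248 in WT libraries. With TGFb it had 81.7, 94.1 and 89.7 in KO and 64.3, 39.3 and 98.4 in WT libraries. No TGFb library reached the lowest library of the other treatments. The difference was 1.36 ± 0.21 for CM against TGFb and 1.82 ± 0.21 for TNFa against TGFb (limma adjusted p = 2e-05 and 5e-08). Of the other sinusoidal genes, Stab2 averaged 220.1 with CM and 205 with TNFa, against 122 with TGFb (0.86 ± 0.20 and 0.76 ± 0.20, adjusted p = 0.0022 and 0.0043). Ehd3 averaged 108 with CM and 129.6 with TNFa, against 43.8 with TGFb (1.29 ± 0.30 and 1.49 ± 0.30, adjusted p = 0.0023 and 0.0003). Maf averaged 421 with CM and 375 with TNFa, against 277 with TGFb (0.60 ± 0.14 and 0.45 ± 0.14, adjusted p = 0.002 and 0.015). Oit3 had 0.95 ± 0.34 for TNFa against TGFb (adjusted p = 0.038). That call was lost without TNFa KO library 2 or 3, TNFa WT library 1, 2 or 3, TGFb KO library 2 or TGFb WT library 1 or 2 (adjusted p = 0.078, 0.067, 0.067, 0.053, 0.06, 0.11, 0.06 and 0.069). It was also lost with no filter and in a fit of only the groups compared (limma adjusted p = 0.056 and 0.051).

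Flt1 (chromosome 5, 147498414 to 147662821) and Tek were highest with TGFb. Flt1 had 202, 89 and 151 in CM KO and 125, 132 and 122 in CM WT libraries. With TNFa it had 144, 71.8 and 90 in KO and 120.3, 78.9 and 82 in WT libraries, against the TGFb values of 209 to 389 given above. No library with CM or TNFa reached the TGFb libraries. Flt1 fell by 1.09 ± 0.22 with CM and by 1.58 ± 0.22 with TNFa relative to TGFb, on the log2 scale (limma adjusted p = 0.0005 and 1e-06). Tek had 74.3, 102 and 61.9 in CM KO and 75.5, 72.2 and 71.3 in CM WT libraries. With TGFb, Tek had 227, 203 and 201 in KO and 189, 123 and 118 in WT libraries. CM and TGFb libraries of Tek did not overlap (-1.18 ± 0.25, adjusted p = 0.0007), and TNFa against TGFb was not called (-0.65 ± 0.25, adjusted p = 0.051). Bmp2 (chromosome 2, 133394079 to 133404805) averaged 132 with TNFa, against 40.7 with TGFb (1.54 ± 0.35, adjusted p = 0.001) and 50.4 with CM, where CM was lower by -1.41 ± 0.35 (0.0036). In KO cells alone the difference of Bmp2 between TNFa and TGFb was 2.14 ± 0.49 (adjusted p = 0.0015) and in WT cells alone 0.95 ± 0.49 (0.25). Between CM and TNFa, Bmp2 differed by -1.70 ± 0.49 in KO cells alone (adjusted p = 0.019) and by -1.12 ± 0.49 in WT cells alone, which was not called (0.15). Cdh5 averaged 1617 with CM, against 2049 with TNFa and 2067 with TGFb (-0.30 ± 0.09 and -0.36 ± 0.09, adjusted p = 0.012 and 0.0023). In WT cells alone Cdh5 was not lower with CM than with TNFa by the test (-0.11 ± 0.12, adjusted p = 0.66).

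Among the stellate genes called between treatments, Cxcl12 was highest with TGFb, Reln was highest with TNFa, and Ecm1 was higher with TGFb than with CM or TNFa. Cxcl12 averaged 1036 with CM and 950.1 with TNFa, against 2462 with TGFb, and every TGFb library was above every other library. It fell by 1.25 ± 0.09 with CM and by 1.39 ± 0.09 with TNFa relative to TGFb on the log2 scale (limma adjusted p = 2e-12 and 1e-13). Reln (chromosome 5, 22089452 to 22549700) had 650, 734 and 669 in CM KO and 841, 895 and 755 in CM WT libraries. With TNFa, Reln had 1327, 1200.5 and 1371 in KO and 1293, 1165 and 1197 in WT libraries. With TGFb, Reln had 390, 639 and 623 in KO and 621, 532 and 598 in WT libraries. The 3 treatments did not overlap, with TNFa highest and TGFb lowest. The difference was 0.43 ± 0.11 for CM against TGFb, 1.17 ± 0.11 for TNFa against TGFb and -0.74 ± 0.11 for CM against TNFa (adjusted p = 0.0038, 3e-10 and 3e-06). Ecm1 averaged 319.9 with CM and 314 with TNFa, against 504 with TGFb (-0.66 ± 0.18 and -0.63 ± 0.18, adjusted p = 0.0071 and 0.0066). In KO cells alone the Ecm1 difference was -0.65 ± 0.25 for CM against TGFb and -0.32 ± 0.25 for TNFa against TGFb, and neither was called (adjusted p = 0.095 and 0.41). In WT cells alone it was -0.67 ± 0.25, not called, and -0.95 ± 0.25 in the same order (adjusted p = 0.081 and 0.0077). Dcn did not pass the test between treatments, with 0.11 ± 0.18 for CM against TGFb, 0.40 ± 0.18 for TNFa against TGFb and -0.29 ± 0.18 for CM against TNFa.

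Markers of other cells moved with treatment too, and their part in these differences was not tested. In CM against TNFa 10.8% of all genes were higher and 8.47% lower. The shares were 12.4% and 14.5% in TNFa against TGFb, and 9.43% and 9.87% in CM against TGFb. Of the hepatocyte markers, 20 of 20 were higher in CM than in TNFa, 20 of 20 were lower in TNFa than in TGFb, and 1 was higher and 7 were lower in CM than in TGFb. Of the Kupffer cell and macrophage markers, 8 of 20 rose and 1 fell in TNFa against TGFb, 4 rose and 2 fell in CM against TGFb, and none rose and 5 fell in CM against TNFa. Within single genotypes, with 3 libraries per group in the shared model, CM against TGFb gave 6 called members in KO cells and 7 in WT cells, where 10.6% and 11.8% of all genes were called. TNFa against TGFb gave 7 in each, against 22.4% of all genes in KO cells and 13.4% in WT cells. CM against TNFa gave 4 in KO cells and 1 in WT cells, against 12.7% and 12.3% of all genes. For CM against TGFb, the calls of Cdh5, Stab2, Flt1, Reln and Ecm1 were lost in KO cells alone (limma adjusted p = 0.056 to 0.15) and those of Tek, Ehd3, Maf and Ecm1 in WT cells alone (0.081 to 0.11). For TNFa against TGFb, the calls of Stab2, Oit3, Maf and Ecm1 were lost in KO cells alone (0.084 to 0.41) and those of Oit3, Ehd3, Bmp2 and Maf in WT cells alone (0.11 to 0.34). Calls were also gained. For CM against TGFb these were Stab1 in KO cells alone (-0.63, limma adjusted p = 0.013) and Plvap in WT cells alone (-3.01, 0.024). TNFa against TGFb gained Eng in WT cells alone (-0.96, 0.032). It gained Fcgr2b in KO cells alone (1.24, 0.0042), against -0.30 in WT cells alone (0.65). CM against TNFa gained Tek in KO cells alone (-1.05, 0.044).

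The partners that these genes signal with were measured in the same libraries. Of 29 ligand, receptor and target genes tested, 9 rose and 3 fell in KO cells in the average, and 5 rose and 13 fell in TNFa against TGFb. Among all genes tested, 11.2% rose and 9.53% fell in the KO average, and 12.4% rose and 14.5% fell in TNFa against TGFb. Hamp, which encodes hepcidin, the hepatocyte target of BMP2, had 3277, 3215 and 3704 in CM KO libraries, against 1525, 1599.6 and 1645 in CM WT libraries. With TNFa, Hamp had 1317, 1437 and 1686 in KO libraries, against 723, 649.5 and 613 in WT libraries. With TGFb, Hamp had 3533, 3617 and 3694 in KO libraries, against 1602, 1589 and 1602 in WT libraries. KO was above WT in each treatment (1.14 ± 0.06 averaged, limma adjusted p = 2e-15), and TNFa was lower than TGFb (-1.28 ± 0.07, adjusted p = 2e-14), where Bmp2 was higher. Hamp2, its near-identical copy, had 2.04 ± 0.07 averaged (2e-19), and reads shared by the copies make either value uncertain. Vegfa, the ligand gene of Flt1 and Kdr, averaged 12087 with TNFa, against 22852 with TGFb (-0.94 ± 0.06, adjusted p = 8e-14). Smad7, a feedback inhibitor gene of TGF-beta signalling, averaged 358 with TNFa, against 1026 with TGFb (-1.52 ± 0.12, adjusted p = 3e-11).

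Further genes of both cell types were counted from lists drawn up with earlier results of these data known. The shares of all genes called were 20.7% in the KO average (11.2% higher and 9.53% lower) and 26.9% in TNFa against TGFb (12.4% and 14.5%). In CM against TGFb the share was 19.3% (9.43% and 9.87%). Of 33 other endothelial genes tested, 13 rose and 2 fell in KO cells in the average (median 0.72). Esam, a junction adhesion gene, had 0.99 ± 0.18, Thbd, which encodes the anticoagulant receptor thrombomodulin, 0.45 ± 0.09 and Eogt, a glycosyltransferase gene, -0.41 ± 0.09 (limma adjusted p = 9e-05, 0.0004 and 0.0015). In TNFa against TGFb 4 rose and 6 fell, among them Thbd (1.0 ± 0.11, adjusted p = 2e-08), the VEGF coreceptor gene Nrp1 (-0.60 ± 0.08, 1e-06) and the connexin gene Gja4 (-3.82 ± 0.87, 0.001), which was at 0 in 3 libraries. Of 19 other stellate genes tested, 8 rose and 1 fell in KO cells (median 0.72), and the smallest p-values were those of the endothelin receptor gene Ednrb (1.43 ± 0.07, 3e-16), the ficolin gene Fcna (1.49 ± 0.25, 4e-05) and Steap4, a metalloreductase gene (0.38 ± 0.07, 0.0001). With CM alone, Steap4 had means of 2005 in KO and 2006 in WT libraries. In TNFa against TGFb 4 rose and 4 fell, among them Ednrb (1.32 ± 0.08, 2e-13), Steap4 (-1.09 ± 0.09, 2e-11) and the basement membrane collagen gene Col4a1 (0.82 ± 0.09, 7e-09). Ednrb is also a sinusoidal endothelial gene, and Fcna a macrophage gene. Of 16 genes of activated stellate cells, none rose and 5 fell in KO cells (median -0.24), among them the collagen crosslinking enzyme gene Lox (-1.04 ± 0.08, 8e-12), the matricellular gene Ccn2 (-0.41 ± 0.06, 1e-05) and the calcium-binding protein gene S100a6 (-0.44 ± 0.08, 0.0001). Relative to TGFb, 6 of these 16 fell and 2 rose with CM, among them S100a6 (-2.03 ± 0.10, 1e-15), Ccn2 (-1.47 ± 0.08, 1e-14) and the filament gene Vim (-1.02 ± 0.09, 1e-09). None of these genes is restricted to stellate cells, and Acta2, Col1a1, Cnn1 and Myh11 were too low to test.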

How the data were processed

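RNA of hepatocytes from Mtdh KO and Mtdh WT mice was measured in 18 libraries. A Qiagen mini-prep kit gave the total RNA, QIAseq FastSelect removed ribosomal RNA and PrepX on an Apollo 324 made the libraries, per the labels' protocols. The submitters' processing notes name Partek, STAR 2.7.8a, DESeq2 and mm39, with no role or order. The deposited table of protein-coding genes holds a signal per gene and library, not whole and not per length, that its name and those notes give as DESeq2-normalized by the authors. Taking the smallest step of low values as 1 read, 66.4% to 73.9% of low values came out within 0.01 of a whole read, so reads were not recovered and no count test was run; the depths given are estimates from that step.

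The 34 members were matched by gene name. Members and gene lists were chosen with earlier results of these data known. A gene was kept if 3 libraries or more reached a value of 10 (14455 genes), values were taken as log2(value + 1), and limma 3.58.1 (R 4.3.3, limma-trend) was fitted with 6 group means over all 18 libraries, with Benjamini-Hochberg adjustment over all genes tested and a threshold of 0.05. A fold on this scale understates the change of low genes. The fit was tested on simulated data. Alternatives were other pseudocounts, filters and scalings, library weights, a replicate block, a fit of only the groups compared, treatment contrasts within 1 genotype, and leaving out each library. Named beyond the members were up to 3 called genes per list with the smallest p, in the KO comparison and in the treatment comparison with most calls; Hamp is such a gene, and 1 gene that the rule names is not reported here. Genes at 0 or low that are named as missing markers were chosen after their values were seen. Gene positions are those of the table (mm39), levels per kilobase use merged GENCODE M21 exons, and promoters are from RefSeq (GRCm38.p6). Summaries used Python 3.11.15 with pandas 2.3.3 and NumPy 2.4.6, and plots matplotlib 3.10.9.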

Additional observations from a re-analysis of the deposited data

Results flagged for a closer look

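By the limma F-test, the KO difference itself varied between treatments for 246 of 14455 genes (1.7%). Among the listed genes that were tested, these were 0 of 31 members, 0 of 33 other endothelial genes, 1 of 19 other stellate genes, 4 of 16 activated stellate genes, 3 of 29 ligand, receptor and target genes, 3 of 20 hepatocyte markers, 1 of 20 Kupffer cell and macrophage markers, 1 of 10 bile duct markers and none of 5 lymphocyte and neutrophil or 3 mesothelial and fibroblast markers. Values are given for the 5 of them that are named above by the rule for named genes. Ednrb, the endothelin B receptor gene, had an adjusted p of 0.02, with differences of 1.48 with CM (means 2332 in KO and 839 in WT libraries), 1.81 with TNFa (3234 and 914) and 0.99 with TGFb (969 and 488). Lox, the collagen crosslinking enzyme gene, had an adjusted p of 0.0011, with -0.31 with CM (3040.3 and 3789), -1.27 with TNFa (1277 and 3076) and -1.55 with TGFb (1974 and 5741). S100a6 had an adjusted p of 0.046, with 0.05 with CM (484 and 468), -0.78 with TNFa (456 and 784) and -0.59 with TGFb (1580.2 and 2382). Vegfa had an adjusted p of 0.02, with -0.08 with CM (13764 and 14574), -0.49 with TNFa (10041 and 14133) and 0.05 with TGFb (23221 and 22482). Vim had an adjusted p of 0.019, with 0.07 with CM (1708 and 1682), -0.20 with TNFa (1935 and 2218) and -0.85 with TGFb (2516 and 4525). Over the alternatives the limma adjusted p ran from 9e-05 to 0.0082 for Lox, from 0.0076 to 0.062 for Ednrb, from 0.024 to 0.13 for S100a6, from 0.0058 to 0.13 for Vegfa and from 0.0003 to 0.058 for Vim. The Ednrb call was lost without TNFa KO library 1 or 2, TNFa WT library 1, TGFb KO library 1 or TGFb WT library 1 or 3, the Vegfa call without TNFa KO library 1, TNFa WT library 1 or TGFb WT library 2 and under quantile normalization and equal totals, and the Vim call without TGFb WT library 3. The S100a6 call was lost under 18 settings.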

How the results depend on the processing

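Of 51 called differences of the members, 26 lost their call or moved by over 1.5 times under some setting, 11 of them when 1 library was left out. Counts of called members that moved were as follows. With CM, KO against WT gave 5 with a filter on a mean value of at least 50 and 5 with equal totals, against 3. With TNFa it gave 5 with quantile normalization and 5 in a fit of only the groups compared, against 8. CM against TNFa gave 5 with equal totals and 1 in WT libraries only, against 3, and CM against TGFb gave 6 in KO libraries only, against 10. Leaving out 1 library, the counts ran from 1 to 4 for KO against WT with CM, 4 to 6 with TNFa, 3 to 5 with TGFb, 10 to 12 averaged, 3 to 5 for CM against TNFa, 10 to 13 for CM against TGFb and 9 to 12 for TNFa against TGFb. Directions reversed for S100a6, CM against TNFa, at 0.09 in KO libraries only, and for Lox, CM against TGFb, at -0.62 in WT libraries only; the causes were not tested. The replicate block gave 3, 7, 6, 11, 3, 10 and 10 called members in the order of comparisons above, and the lost call was Pecam1 with TNFa (limma adjusted p = 0.057). Deviations of same-numbered libraries correlated between -0.07 and 0.05, and those of differently numbered libraries between -0.06 and 0.06. The numbers thus gave no sign of pairing, but noise in low genes could hide it, so pairing stays unknown. The endothelial level differed between KO and WT by 0.42 to 0.51 over the alternatives, against 0.50. Values of Clec4g, Plvap, Kdr, Lrat, Pdgfrb, Pdgfra and Col3a1 were close to the level of 3 reads in 1 library or more, which limits what they can show.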
